A study of Homo sapiens with 12 samples.

Results

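The 57 genes described here encode the machinery that copies DNA and makes its building blocks. They were chosen by name, as replication and nucleotide synthesis genes, and not by a cut on a measured value. Earlier results of these data were known when they were chosen. Each symbol was matched to an Ensembl gene identifier in the count table, and all 57 were found among its 62754 identifiers. All 57 also passed the filter on low counts that left 17115 genes for testing. The cells were PC9, an established human lung adenocarcinoma line with an activating EGFR mutation, here grown from a subclonal line. RNA was compared between 4 groups of 3 cultures, which had been split from a shared flask and then kept apart, so p-values measure the spread between such cultures. Untreated wild type (WT) cells carried intact TDP1, the gene of a tyrosyl-DNA phosphodiesterase that clears trapped topoisomerase I from DNA. Drug-tolerant cells (DTC) were TDP1 WT cells after 7 days in 1 µM erlotinib, an EGFR kinase inhibitor. Drug-tolerant expanded cells (DTEC) were TDP1 WT cells after 28 days in the same 1 µM erlotinib. The knockout group (KO) was a TDP1 knockout line, KO2, left untreated, so every group shares the PC9 background and the knockout is represented by that line alone.

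Replication starts with licensing, in which the origin recognition complex, CDC6 and CDT1 load the ring-shaped MCM helicase onto DNA in G1, and geminin then blocks reloading. In S phase the CDC7-DBF4 kinase turns the loaded ring into the CMG helicase, with CDC45 and the GINS complex as partners, and polymerase alpha-primase, the sliding clamp PCNA and polymerases delta and epsilon copy the strands. Ribonucleotide reductase and thymidylate synthase supply deoxynucleotides, and E2F factors, held back by RB proteins in resting cells, switch most of these genes on as a cell enters the cycle. In cultured cells their summed RNA is therefore often read as a sign of cycling. In bulk RNA such as this, fewer cells of a kind and less RNA in each cell cannot be told apart.

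The libraries held 25572691 to 38373679 estimated counts each. Levels are given as CPM, counts for each 1000000 of library sizes scaled by TMM, edgeR's trimmed mean of M-values, with factors of 0.892 to 0.908 (untreated WT), 1.15 to 1.16 (DTC), 1.01 to 1.02 (DTEC) and 0.943 to 0.951 (KO). The share of counts from mitochondrially encoded genes lay highest in DTC, at 4.43% to 5.41%, with 2.504% to 2.77% for untreated WT, 1.82% to 2.38% for DTEC and 2.59% to 2.78% for KO. TDP1 itself was at 28.1, 25.1 and 25.8 CPM in untreated WT against 10.1, 11.3 and 10.98 CPM in KO, lower in KO by the test used throughout (log2 fold change -1.29 ± 0.11 SE, adjusted p = 1.3e-05). Of 8 lung epithelial markers, EPCAM, CDH1 and 4 keratins were abundant while NKX2-1 and NAPSA were near 0. The summed level of the 8 was lowest in DTC, at 6294 to 7279 CPM, with 10790 to 11390 for untreated WT, 9276 to 12150 for DTEC and 11480 to 12310 for KO. The markers did not fall together. Mean levels of KRT8, KRT18, KRT19 and EPCAM were lower in DTC than in untreated WT. Those of CDH1 (298 against 285 CPM), KRT7 (2071 against 1965 CPM), NKX2-1 and NAPSA were not. The 6 fibroblast markers summed to 54.95 to 57.6 CPM in DTC, 7.99 to 8.91 for untreated WT, 11.2 to 14.1 for DTEC and 13.4 to 15.1 for KO, nearly all of it COL1A1, with COL1A2, COL3A1 and DCN at or near 0. The 4 endothelial markers summed to 58.5 to 61.4 CPM for untreated WT, 42.15 to 50.1 for DTC, 122 to 142 for DTEC and 75.8 to 77.3 for KO, almost all PECAM1 and CDH5, and the 6 haematopoietic markers to 25.9 to 55.3 CPM over all libraries, almost all CD68 with PTPRC and CD3E at or near 0. The part of these differences in the results was not tested.

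Promoter letters were examined because members of the set moved together and E2F factors are known to bind many such promoters. In RefSeq (GRCh38.p14), 49 of the 57 genes had a promoter entry under their symbol. The letters TTTGGCGC, TTTCCCGC, TTTGCCGC and TTTCGCGC, searched on both strands in the 250 bases before the start, were present in 14 of the 49 promoters (28.6%) and in 761 of 27305 promoters overall (2.79%). A CCAAT box, the letters CCAAT on either strand, was present in 29 of the 49 (59.2%) and in 33.0% of all promoters. The shares over all promoters include genes that did not pass the filter on low counts here, whereas all 57 genes passed it. A match describes these letters and is no measured binding site. The stretches below, 30 bases each and 5′ to 3′ along the gene, are from 4 of the genes with such letters that fell most at 7 days, and from POLA2, the gene with such letters whose 7-day value was closest to 0. Capitals mark the match.
MCM7: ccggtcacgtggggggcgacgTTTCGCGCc
POLA1: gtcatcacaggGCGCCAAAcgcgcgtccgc
MCM3: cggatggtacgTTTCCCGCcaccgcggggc
GINS2: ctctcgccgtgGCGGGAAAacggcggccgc
POLA2: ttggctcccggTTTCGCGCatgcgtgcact
MCM7 (minus strand, chr7:100101398-100101427), a subunit of the helicase ring, has TTTCGCGC beginning 9 bases before its start, and its window holds 2 matches in all. POLA1 (plus strand, chrX:24693770-24693799), the catalytic subunit of polymerase alpha, has its match on the opposite strand at 137 bases. MCM3 (minus strand, chr6:52284898-52284927), another ring subunit, has TTTCCCGC at 174 bases, and GINS2 (minus strand, chr16:85688967-85688996), a partner of the ring, has its match on the opposite strand at 31 bases. POLA2 (plus strand, chr11:65261898-65261927), the regulatory subunit of polymerase alpha, has TTTCGCGC at 53 bases. In GENCODE 29 some transcripts of MCM7, GINS2 and POLA2 start farther upstream, so that these 3 stretches lie in their 5′ untranslated exons. The MCM7 and POLA2 stretches carry the same 8 letters on the same strand. At 7 days MCM7 had a log2 fold change of -1.96 and POLA2 of 0.02. This contrast was set by how the stretches were picked, and the POLA2 value depended on scaling, as given below. Across the set the median log2 fold change at 7 days was -1.13 for the 14 genes with E2F letters and -1.08 for the 35 without, and at 28 days -0.85 and -0.92.

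After 7 days of erlotinib the replication genes fell almost as a block. Of the 57 genes, 51 were lower in DTC than in untreated WT and none was higher at an adjusted p under 0.05, against 33.3% of all genes tested that were lower and 34.0% that were higher. A fall of at least 2-fold was called for 34 of them, against 13.9% of all genes. Their median log2 fold change was -1.09, beside 0.06 over all genes, which puts the median gene at 47.1% of its untreated level. In 52 of the 57 every DTC library lay below every untreated WT library, which was so for 33.8% of all genes. Together they summed to 5609 to 5794 CPM in the untreated WT libraries and 2550 to 2720 CPM in the DTC libraries. Tests here and throughout are edgeR's quasi-likelihood F test on all 12 libraries, with Benjamini-Hochberg adjustment over the 17115 genes, and errors of log2 fold changes are SE. The DTC libraries also stood apart in scaling: the median over all genes moved to 0.41 with total counts alone and 0.34 with upper-quartile factors, where 44 and 46 of the 57 were lower and 2 were higher. The median of the members less that of all genes was -1.14 with TMM and with both of these.

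At 28 days most of the genes were still lower than in untreated WT, with a smaller median fall. In DTEC 52 of the 57 were lower than in untreated WT and none was higher, against 26.3% of all genes that were lower and 26.0% that were higher. A fall of at least 2-fold was called for 16, against 6.70% of all genes, and the median log2 fold change was -0.86 beside 0.02 over all genes. The summed level was 3063 to 3470 CPM in the DTEC libraries. In 52 of the 57 all DTEC libraries lay below all untreated WT libraries, as did 31.3% of all genes. Both comparisons share the untreated WT libraries.

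**Figure D1:**
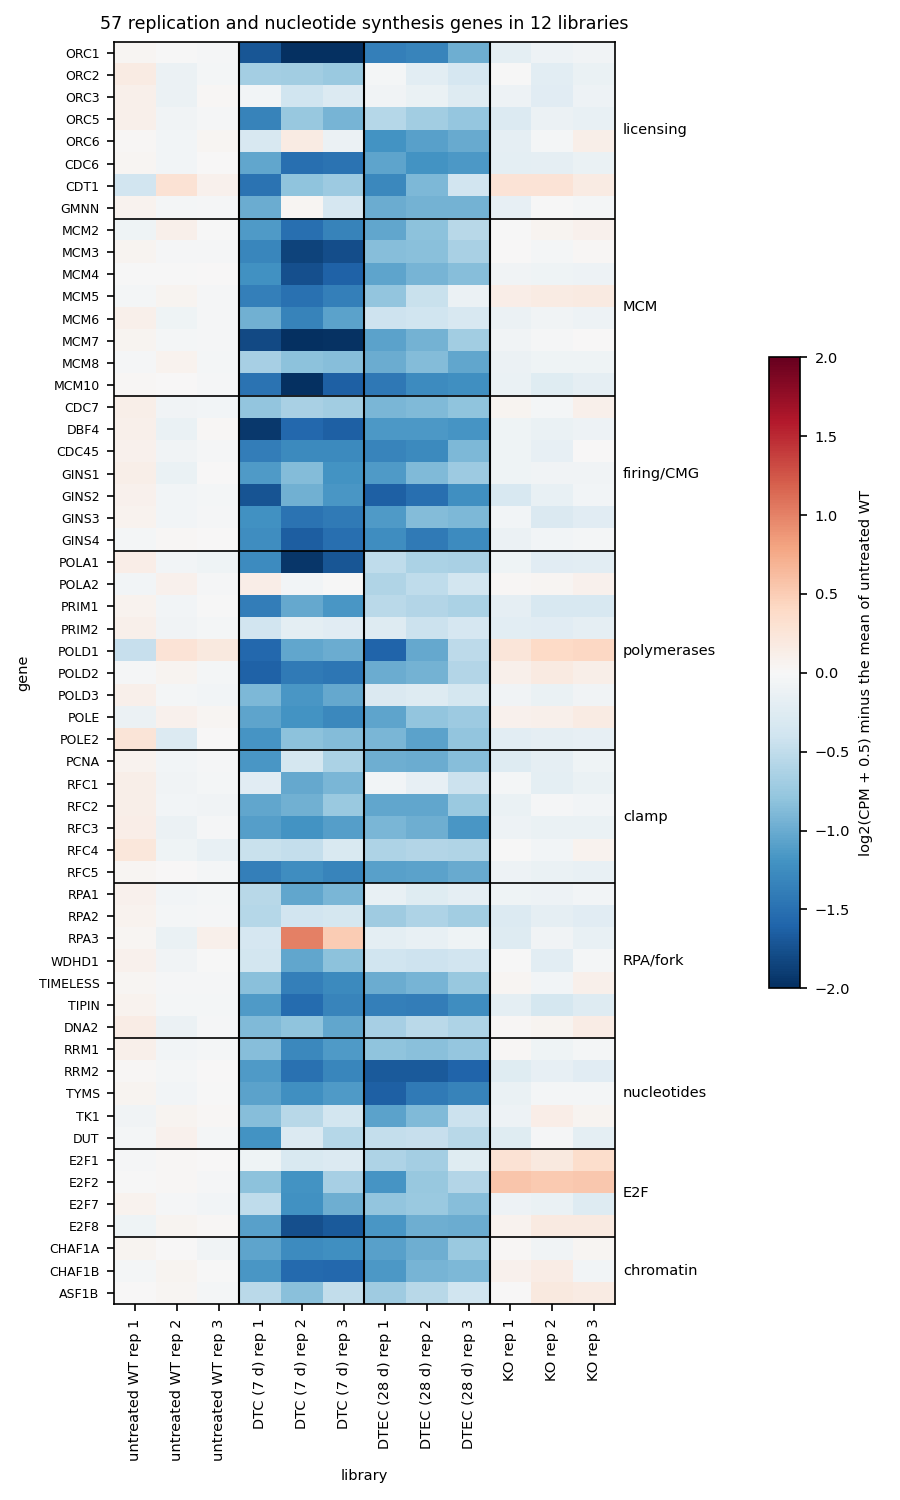
Each cell is the log2 ratio of 1 gene (rows, 57 genes grouped by role) in 1 library (columns, 12 libraries in 4 groups) to that gene's mean in untreated WT, as the colour bar gives. The DTC columns are low for nearly all rows, the DTEC columns are low but paler for many MCM and polymerase genes, and the KO columns lie close to untreated WT.

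In the direct comparison of DTEC with DTC genes went both ways, and the share called was near that of all genes. A difference was called for 30 of the 57 genes, against 55.4% of all genes, and for 17 when the DTEC and DTC libraries were fitted alone. Of the 30, 17 were called under all 14 alternatives. In DTEC 23 of the 57 genes were higher than in DTC, against 28.8% of all genes, and 7 were lower, against 26.6% of all genes. This split depends on how libraries are scaled: it was 14 higher and 13 lower both with total counts alone and with upper-quartile factors. Of the 51 genes lower at 7 days, 39 had a 28-day value closer to 0 and 12 a value farther from 0. In full, 25 genes were lower at both times with no difference between the times called, 20 were lower at both times and higher in DTEC than in DTC, and 3 (RPA2, RRM2 and TYMS) were lower at both times and lower in DTEC than in DTC, the last not called for any of these 3 with the compared libraries fitted alone. ORC2, RFC1 and RPA1 were lower in DTC only by the test, and were higher in DTEC than in DTC, a difference lost in 8 of 14 alternatives for RFC1 and in none for ORC2 and RPA1. ORC6, GMNN and POLA2 were not called at 7 days, were lower at 28 days, and differed between the times. E2F1 was called lower at 28 days alone, and its difference between the times (adjusted p = 0.0611) was called in 6 of 14 alternatives. RPA3 was lower in DTEC against DTC and not called against untreated WT. ORC3 was called in none of these comparisons, though it was called lower at 7 days in 2 of 14 alternatives.

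**Figure D2:**
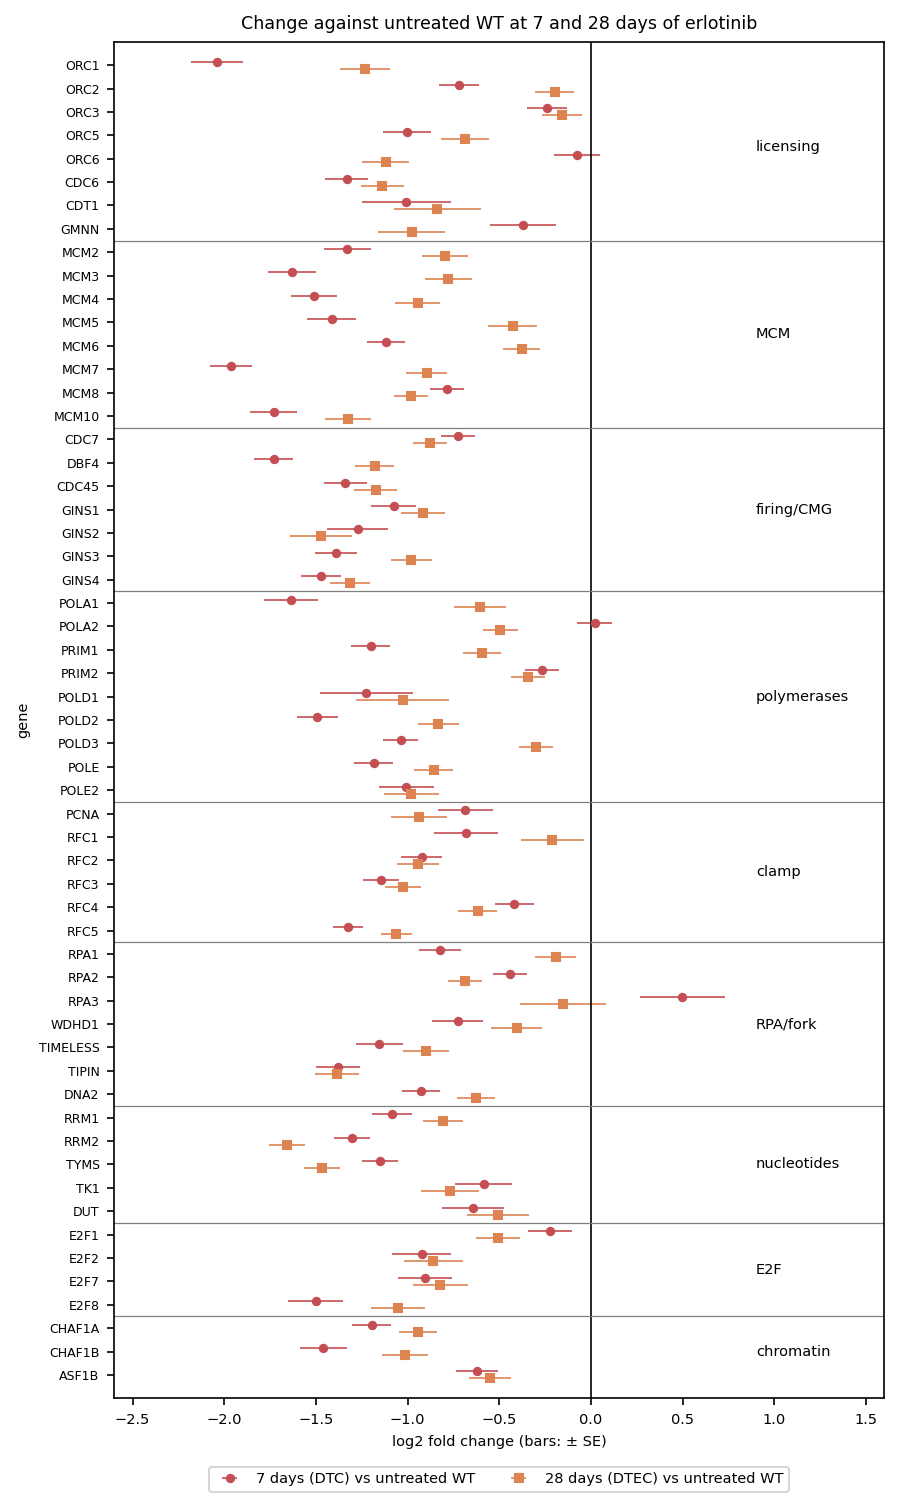
Log2 fold change against untreated WT (x axis, points with SE bars) of the 57 genes (y axis, grouped by role) at 7 days (DTC, circles) and 28 days (DTEC, squares). Nearly all points lie left of 0. The 7-day points of ORC1, MCM7, POLA1 and most MCM genes lie far to the left of their 28-day points, and those of ORC6, GMNN, POLA2, RRM2 and TYMS lie to the right of theirs.

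Licensing genes split within their own complex. Of the 8 origin recognition and loading genes, 5 were lower in DTC and 6 in DTEC, with median log2 fold changes of -0.86 and -0.91. ORC1, the origin recognition subunit that is made anew in each cycle, had 66.9, 65.2 and 64.0 CPM in untreated WT, 19.6, 13.6 and 14.6 in DTC, 24.9, 25.7 and 32.8 in DTEC and 56.8, 60.8 and 62.5 in KO. Its DTC libraries lay lowest and its DTEC libraries lay between DTC and untreated WT, without overlap. It fell at 7 days (log2 fold change -2.04 ± 0.141, adjusted p = 1.63e-08), the largest fall of the 57, and was also lower at 28 days (log2 fold change -1.23 ± 0.137, adjusted p = 4.81e-06). ORC6 (chr16:46689643-46698394 in GRCh38, GENCODE 29), the smallest subunit, had 32.1, 30.6 and 32.5 CPM in untreated WT, 25.2, 35.7 and 29.2 in DTC, 13.6, 14.7 and 15.5 in DTEC and 27.9, 30.8 and 34.6 in KO. The DTC libraries overlapped untreated WT and the DTEC libraries lay below all others. ORC6 was not called at 7 days (log2 fold change -0.08 ± 0.126, adjusted p = 0.597) and fell at 28 days (log2 fold change -1.12 ± 0.129, adjusted p = 6.77e-06). The DTEC against DTC difference was 0.81 ± 0.139 for ORC1 (adjusted p = 0.000212) and -1.04 ± 0.129 for ORC6 (adjusted p = 1.18e-05), and it was called under every alternative setting for both. The estimated counts of ORC6 were whole numbers in 0 of 12 libraries. Reads shared among transcripts of the same gene sum to a whole number, so some were probably shared out with other loci by the estimate. The part of such reads in the ORC6 values was not tested.

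CDC6, the loading ATPase, had 146, 137 and 143 CPM in untreated WT, 68.8, 49.6 and 50.7 in DTC, 67.8, 61.9 and 63.7 in DTEC and 124, 126 and 129 in KO. Both treated groups lay below the untreated ones, and CDC6 fell at 7 days (log2 fold change -1.33 ± 0.117, adjusted p = 1.89e-07) and at 28 days (log2 fold change -1.14 ± 0.117, adjusted p = 2.35e-06). CDT1, its partner in loading, ranged more widely, with 47.8, 76.2 and 66.3 CPM in untreated WT, 22.04, 35.3 and 37.3 in DTC, 25.2, 33.3 and 47.9 in DTEC and 75.5, 75.3 and 70.03 in KO. The highest DTEC library of CDT1 reached the lowest untreated WT library. CDT1 fell at 7 days (log2 fold change -1.01 ± 0.240, adjusted p = 0.0023) and at 28 days (log2 fold change -0.84 ± 0.239, adjusted p = 0.0102), the latter not without untreated WT replicate 2 (adjusted p = 0.0525) or without DTEC replicate 1 (adjusted p = 0.0535). GMNN, the gene of geminin, the inhibitor of CDT1, had 55.05, 51.2 and 51.5 CPM in untreated WT, 26.3, 54.1 and 41.7 in DTC, 26.1, 26.97 and 27.1 in DTEC and 47.00, 52.5 and 51.1 in KO. DTC replicate 1 alone was at the DTEC level, and DTC replicate 2 was at the untreated level. GMNN was not called at 7 days (log2 fold change -0.37 ± 0.180, adjusted p = 0.0837), but was in 3 of 14 alternatives, among them no filter (-0.39, adjusted p = 0.0108) and without DTC replicate 2 (-0.57, adjusted p = 0.00448). At 28 days it was lower (log2 fold change -0.98 ± 0.183, adjusted p = 0.000495). Of the remaining licensing genes, ORC2 and ORC5 fell at 7 days by 0.72 and 1.01 on the log2 scale, and ORC3 had -0.24.

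The MCM family, here 8 genes grouped by name and not all of them ring subunits, fell as a whole. All 8 genes were lower in DTC, 7 of them by at least 2-fold, and all 8 were lower in DTEC, with median log2 fold changes of -1.46 and -0.85. Between the times, 7 of the 8 were higher in DTEC than in DTC, MCM8 being the exception, though the MCM10 difference was lost in 6 of 14 alternatives. MCM7 (chr7:100092728-100101940), the most abundant of the family per kilobase, had 489, 459 and 464 CPM in untreated WT, 134, 109 and 119.5 in DTC, 223, 245 and 290.3 in DTEC and 448, 463 and 475 in KO. The 3 levels did not overlap, and MCM7 fell at 7 days (log2 fold change -1.96 ± 0.114, adjusted p = 3.33e-09) and less at 28 days (log2 fold change -0.90 ± 0.111, adjusted p = 1.28e-05). MCM2, another ring subunit and a common proliferation marker, had 182, 206 and 192 CPM in untreated WT, 87.4, 67.3 and 76.1 in DTC, 93.8, 109 and 131 in DTEC and 191, 199.5 and 205 in KO, and fell at both times (log2 fold change -1.33 ± 0.127, adjusted p = 4.28e-07) and (log2 fold change -0.80 ± 0.126, adjusted p = 0.000113). MCM5, a ring subunit too, had 170.2, 182 and 172 CPM in untreated WT, 67.7, 61.5 and 67.7 in DTC, 101, 129 and 161 in DTEC and 191, 197 and 199 in KO. Its 3 DTC libraries were close together while its DTEC libraries spread up to the edge of untreated WT. MCM5 fell at 7 days (log2 fold change -1.41 ± 0.135, adjusted p = 4.29e-07) and was called lower at 28 days (log2 fold change -0.43 ± 0.133, adjusted p = 0.0146), a call lost with upper-quartile factors, with total counts alone, with the compared libraries fitted alone, and on leaving out any of untreated WT replicates 2 and 3 and DTEC replicates 1 and 2 (log2 fold change -0.25, adjusted p = 0.104 without DTEC replicate 1).

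MCM8, which acts in recombination with MCM9 and is not part of the ring, had 43.4, 46.1 and 42.6 CPM in untreated WT, 27.6, 24.8 and 24.2 in DTC, 21.9, 23.99 and 21.2 in DTEC and 40.3, 41.2 and 41.4 in KO. It had the smallest 7-day fall of the family (log2 fold change -0.79 ± 0.0928, adjusted p = 3.59e-06) and also fell at 28 days (log2 fold change -0.98 ± 0.0933, adjusted p = 1.17e-06), and a difference between the times was called in 3 of 14 alternatives only. Its estimated counts were whole in 2 of 12 libraries. DTEC against DTC was 1.07 ± 0.111 for MCM7 (adjusted p = 2.45e-06), the largest rise of the 57. The same difference was 0.99 ± 0.134 for MCM5 (adjusted p = 2.8e-05) and 0.53 ± 0.126 for MCM2 (adjusted p = 0.0025). The other genes of this list fell at 7 days by 1.12 (MCM6) to 1.73 (MCM10) on the log2 scale.

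**Figure D3:**
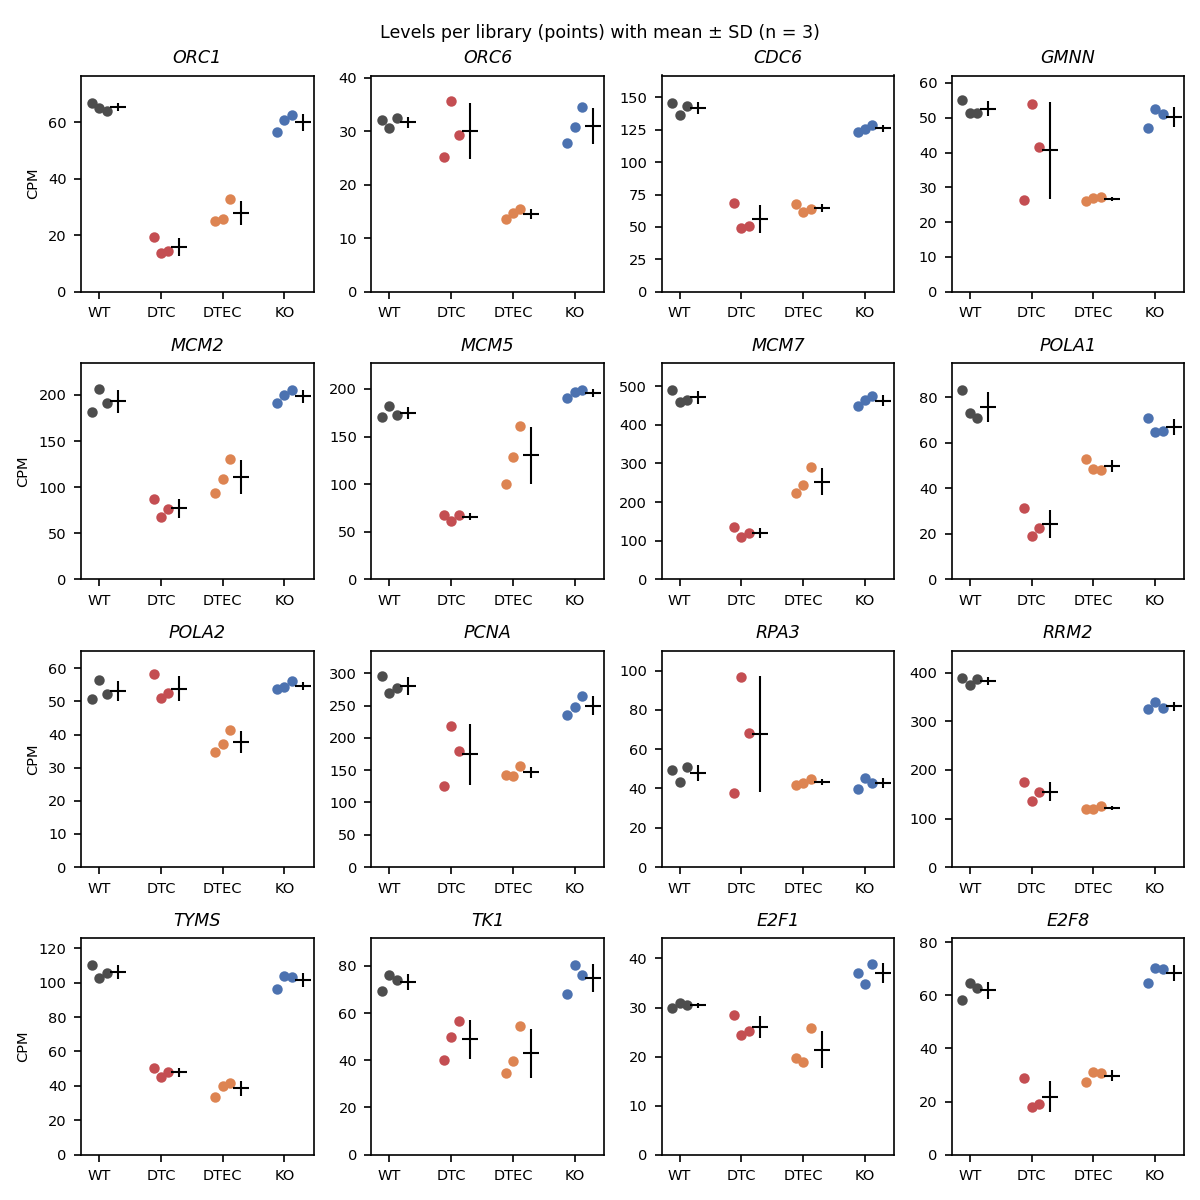
CPM (y axes, from 0) of 16 of the genes in the 3 libraries of each group (points), with the mean and SD beside them. ORC1, MCM7 and POLA1 rise from DTC to DTEC, and ORC6, POLA2 and RRM2 fall from DTC to DTEC. DTC replicate 1 lies below replicates 2 and 3 for genes such as GMNN, PCNA and RPA3. It lies above them for others, such as ORC1, CDC6, POLA1 and E2F8.

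The firing kinase and the CMG partners fell together. All 7 were lower in DTC, 6 of them by at least 2-fold, and all 7 in DTEC, with medians of -1.34 and -1.17. DBF4, the regulatory subunit that activates CDC7, had 74.9, 63.6 and 70.6 CPM in untreated WT, 17.8, 22.99 and 22.2 in DTC, 31.1, 30.9 and 30.3 in DTEC and 65.5, 63.4 and 64.8 in KO. CDC7, the kinase itself, had 52.7, 46.2 and 46.8 CPM in untreated WT, 27.7, 30.7 and 29.8 in DTC, 25.5, 26.1 and 27.6 in DTEC and 50.5, 47.3 and 51.8 in KO. Neither gene had a treated library within the untreated WT range. DBF4 fell by more at 7 days (log2 fold change -1.73 ± 0.108, adjusted p = 6.4e-09) than at 28 days (log2 fold change -1.18 ± 0.106, adjusted p = 6.88e-07), with a difference of 0.55 ± 0.107 (adjusted p = 0.000568). CDC7 fell at 7 days (log2 fold change -0.72 ± 0.0928, adjusted p = 8.22e-06) and at 28 days (log2 fold change -0.88 ± 0.0932, adjusted p = 3.16e-06), and a difference between the times was called only with upper-quartile factors and total counts alone. CDC45 and the 4 GINS genes had 7-day log2 fold changes of -1.08 (GINS1) to -1.47 (GINS4) and 28-day ones of -0.92 (GINS1) to -1.47 (GINS2). Estimated counts of DBF4 were whole in 0 of 12 libraries and those of GINS1 in 5.

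The transcripts of polymerase alpha-primase changed unequally. Of the 9 polymerase and primase genes, 8 were lower in DTC and all 9 in DTEC, with medians of -1.19 and -0.61. POLA1 (chrX:24693919-24996986), the catalytic subunit, had 83.2, 73.2 and 71.1 CPM in untreated WT, 31.3, 19.3 and 22.7 in DTC, 53.1, 48.5 and 47.9 in DTEC and 70.97, 64.8 and 65.2 in KO. POLA2 (chr11:65261762-65305589), the regulatory subunit of the same enzyme, had 50.8, 56.4 and 52.1 CPM in untreated WT, 58.2, 50.9 and 52.5 in DTC, 34.8, 37.01 and 41.2 in DTEC and 53.7, 54.2 and 56.1 in KO. POLA1 was low in DTC and intermediate in DTEC, while POLA2 in DTC overlapped untreated WT and was low in DTEC. POLA1 fell at 7 days (log2 fold change -1.64 ± 0.146, adjusted p = 2.18e-07) and at 28 days (log2 fold change -0.61 ± 0.142, adjusted p = 0.00255). POLA2 was not called at 7 days (log2 fold change 0.02 ± 0.0953, adjusted p = 0.856), was called higher there with upper-quartile factors (0.31, adjusted p = 0.00837) and total counts alone (0.38, adjusted p = 0.00294), and was lower at 28 days (log2 fold change -0.49 ± 0.0959, adjusted p = 0.00062). DTEC against DTC was 1.03 ± 0.145 for POLA1 (adjusted p = 3.81e-05) and -0.52 ± 0.0959 for POLA2 (adjusted p = 0.000415), called under every alternative for both. The counts of POLA2 need care: they were whole in 0 of 12 libraries, and 2012 of its exon bases are shared in GENCODE 29 with AP000944.2 on the same strand. The primase catalytic subunit PRIM1 fell by 1.20 at 7 days on the log2 scale. Its partner PRIM2 had -0.27 there (adjusted p = 0.019), a call lost in 10 of 14 alternatives, with a value of 0.087 with total counts alone. The delta and epsilon polymerase genes fell at 7 days by 1.01 (POLE2) to 1.49 (POLD2).

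The ratio of 2 genes in a library does not depend on how libraries are scaled. The following pairs were chosen after their values were seen, so they carry no test. POLA1 over POLA2 was 1.43 ± 0.18 in untreated WT (SD, n = 3), 0.449 ± 0.0813 in DTC, 1.33 ± 0.183 in DTEC and 1.23 ± 0.0842 in KO. ORC1 over ORC6 was 2.06 ± 0.0833, 0.552 ± 0.203, 1.90 ± 0.195 and 1.94 ± 0.118 in the same order. PRIM1 over PRIM2 was 1.05 ± 0.0239, 0.547 ± 0.0372, 0.884 ± 0.0471 and 1.00 ± 0.0597. In these 3 pairs the DTC libraries lay below all the others. Estimated counts were whole in 4 of 12 libraries for PRIM1 and in 1 of 12 for PRIM2. Of the exon bases of PRIM1, 362 are shared with AC117378.1 on the same strand. The part of such shared reads in the ratios was not tested. MCM7 over GINS2 took another course, with 9.84, 10.2 and 10.2 in untreated WT, 9.72, 4.61 and 5.81 in DTC, and 15.2, 15.3 and 14.8 in DTEC.

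**Figure D4:**
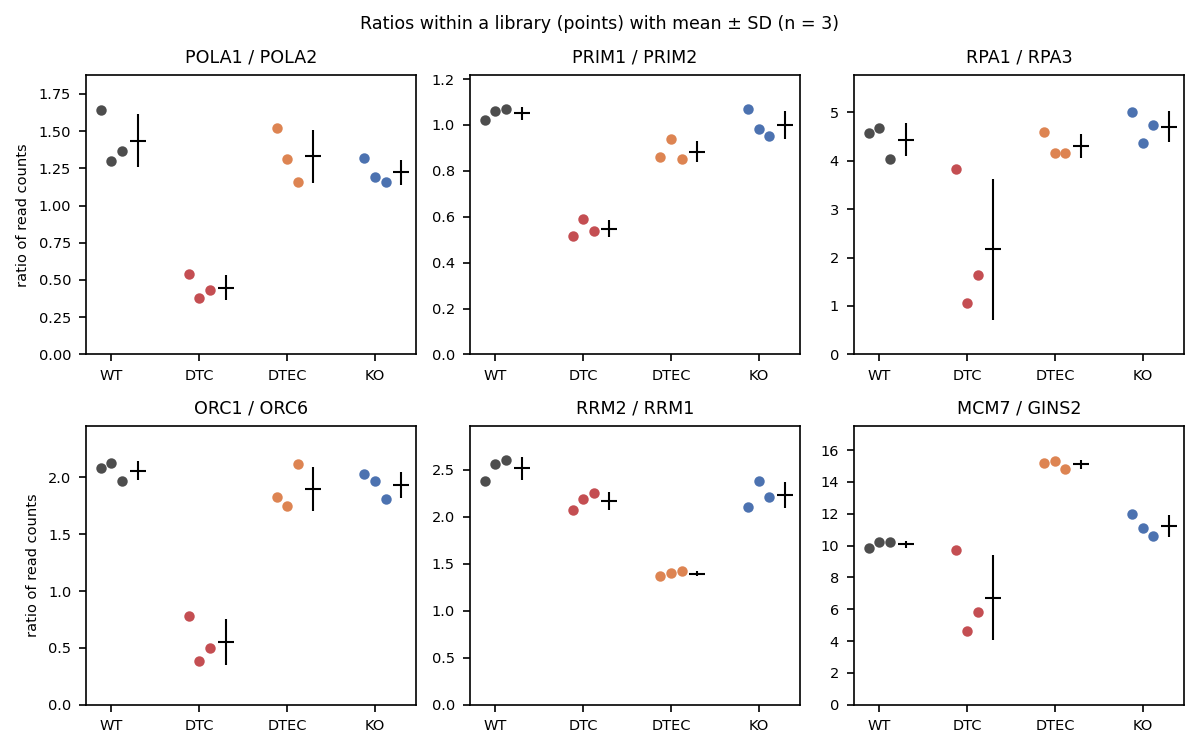
Ratio of CPM between 2 genes (y axes, from 0) for 6 pairs in the 3 libraries of each group (points). POLA1 over POLA2, PRIM1 over PRIM2 and ORC1 over ORC6 are lowest in DTC. In DTEC, PRIM1 over PRIM2 also lies below untreated WT and KO, and RRM2 over RRM1 is lowest. DTC replicate 1 lies apart for RPA1 over RPA3 and for MCM7 over GINS2.

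Among the clamp and clamp loader genes, all 6 were lower in DTC and 5 in DTEC, with medians of -0.80 and -0.94. PCNA (chr20:5114953-5126626), the sliding clamp, had the highest level per kilobase of exon of the 57 genes in untreated WT, 191 CPM per kilobase. Its libraries had 296, 269 and 277 CPM in untreated WT, 125, 219 and 179.9 in DTC, 143, 140.2 and 156 in DTEC and 236, 248 and 265 in KO. DTC replicate 1 was lower than every DTEC library and the other 2 DTC replicates were higher than every DTEC library. PCNA fell at 7 days (log2 fold change -0.68 ± 0.152, adjusted p = 0.00111), a call lost with total counts alone (adjusted p = 0.066), and at 28 days (log2 fold change -0.94 ± 0.153, adjusted p = 0.000145). RFC5, a small clamp loader subunit, had 79.4, 77.7 and 75.4 CPM in untreated WT, 29.6, 32.3 and 30.8 in DTC, 36.4, 36.8 and 38.3 in DTEC and 72.4, 70.5 and 69.8 in KO. RFC4, another small subunit, had 82.3, 66.4 and 63.2 CPM in untreated WT, 51.6, 50.3 and 56.7 in DTC, 45.6, 46.4 and 46.1 in DTEC and 69.7, 67.2 and 74.1 in KO. No treated library of either gene lay within its untreated WT range, and RFC5 had the largest and RFC4 the smallest 7-day change of the loader genes. RFC5 fell at 7 days (log2 fold change -1.32 ± 0.0832, adjusted p = 6.78e-09) and at 28 days (log2 fold change -1.06 ± 0.0826, adjusted p = 1.89e-07). RFC4 fell at 7 days (log2 fold change -0.42 ± 0.106, adjusted p = 0.00289), though not with upper-quartile factors (adjusted p = 0.285) or total counts alone (adjusted p = 0.608), and at 28 days (log2 fold change -0.62 ± 0.106, adjusted p = 0.000237). RFC1, RFC2 and RFC3 fell at 7 days by 0.68, 0.92 and 1.14 on the log2 scale, RFC1 not with total counts alone (-0.325, adjusted p = 0.108).

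The single-strand binding, fork protection and flap processing genes were mixed. Of 7, 6 were lower in DTC and 5 in DTEC, with medians of -0.82 and -0.63. TIPIN, the partner of TIMELESS at the fork, had 20.97, 19.3 and 19.3 CPM in untreated WT, 8.79, 6.53 and 7.62 in DTC, 7.40, 7.33 and 8.08 in DTEC and 17.4, 15.4 and 16.6 in KO. It fell at 7 days (log2 fold change -1.38 ± 0.120, adjusted p = 1.72e-07) and at 28 days (log2 fold change -1.38 ± 0.121, adjusted p = 5.03e-07), with no difference between the times called, and 579 of its exon bases are shared with the pseudogene RPL9P25. RPA3 (chr7:7636518-7718607), the smallest subunit of the RPA trimer that coats single-stranded DNA, had 49.2, 43.4 and 50.96 CPM in untreated WT, 37.6, 96.7 and 68.4 in DTC, 41.6, 42.9 and 44.7 in DTEC and 39.98, 45.3 and 42.8 in KO. DTC replicates 2 and 3 were above every other library and DTC replicate 1 was below all untreated WT libraries. RPA3 was not called at 7 days (log2 fold change 0.50 ± 0.234, adjusted p = 0.0747) and was called higher there in 7 of 14 alternatives, most clearly without DTC replicate 1 (log2 fold change 0.82, adjusted p = 1.44e-05). RPA2, the middle subunit, had 45.7, 42.2 and 42.8 CPM in untreated WT, 29.03, 33.2 and 33.9 in DTC, 26.3, 28.2 and 26.7 in DTEC and 35.9, 38.4 and 37.1 in KO. All treated libraries of RPA2 lay below untreated WT, and it fell at 7 days (log2 fold change -0.44 ± 0.0921, adjusted p = 0.000676), but not with upper-quartile factors (adjusted p = 0.164) or total counts alone (adjusted p = 0.416), and at 28 days (log2 fold change -0.69 ± 0.0926, adjusted p = 2.75e-05). RPA1, the large DNA-binding subunit, fell by 0.82 at 7 days and had -0.19 at 28 days. DTEC against DTC was 0.63 for RPA1, -0.25 for RPA2 and -0.65 for RPA3, all called, though those of RPA2 and RPA3 were lost in 5 of 14 alternatives each. RPA1 over RPA3 was 4.56, 4.68 and 4.04 in untreated WT and 3.82, 1.06 and 1.64 in DTC. TIMELESS, WDHD1 and DNA2 fell at 7 days by 1.15, 0.73 and 0.93.

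Nucleotide synthesis included genes that were lower at 28 days than at 7. All 5 were lower in DTC and in DTEC, with medians of -1.09 and -0.81. RRM2 (chr2:10120698-10131419), the cell-cycle regulated subunit of ribonucleotide reductase, had 389, 374 and 388 CPM in untreated WT, 175, 136 and 156 in DTC, 119, 119 and 126 in DTEC and 325, 341 and 327 in KO. The order untreated WT, DTC, DTEC held with no overlap, and RRM2 fell at 7 days (log2 fold change -1.30 ± 0.0991, adjusted p = 4.19e-08) and at 28 days (log2 fold change -1.66 ± 0.100, adjusted p = 2.22e-08), the largest 28-day fall of the 57. TYMS (chr18:657604-673578), thymidylate synthase, had 110.5, 103 and 106 CPM in untreated WT, 50.4, 44.97 and 48.3 in DTC, 33.8, 39.7 and 41.9 in DTEC and 96.6, 104 and 104 in KO. Its order was the same, with falls at 7 days (log2 fold change -1.15 ± 0.0986, adjusted p = 1.44e-07) and at 28 days (log2 fold change -1.47 ± 0.0996, adjusted p = 5.95e-08). DTEC against DTC was -0.36 ± 0.0980 for RRM2 (adjusted p = 0.00689) and -0.32 ± 0.0985 for TYMS (adjusted p = 0.0139). Fitting the DTEC and DTC libraries alone moved these to adjusted p = 0.059 and 0.0765, and TYMS was not called without DTEC replicate 1 (adjusted p = 0.0692). RRM2 over RRM1, its large partner subunit, was 2.52 ± 0.124 in untreated WT (SD, n = 3), 2.17 ± 0.0871 in DTC, 1.39 ± 0.0257 in DTEC and 2.23 ± 0.139 in KO. TK1, the salvage thymidine kinase, had 69.5, 76.3 and 74.03 CPM in untreated WT, 40.1, 49.9 and 56.5 in DTC, 34.7, 39.6 and 54.5 in DTEC and 68.2, 80.2 and 76.00 in KO. DTC and DTEC overlapped, below untreated WT, and TK1 fell at 7 days (log2 fold change -0.59 ± 0.156, adjusted p = 0.00408), a call lost with upper-quartile factors (adjusted p = 0.118) and total counts alone (adjusted p = 0.205), and at 28 days (log2 fold change -0.77 ± 0.156, adjusted p = 0.000881). DUT, the dUTPase, and RRM1 fell at 7 days by 0.64 and 1.08 on the log2 scale, DUT not with upper-quartile factors or total counts alone (-0.286, adjusted p = 0.149, with the latter). Exons of RRM2 share 1077 bases with AC007240.1 on the same strand, and those of TYMS share 967 with ENOSF1 on the opposite strand.

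Of the 4 E2F factors, 3 were lower in DTC and all 4 in DTEC, with medians of -0.91 and -0.84. E2F1, an activator of S-phase genes, had 29.9, 30.8 and 30.6 CPM in untreated WT, 28.5, 24.4 and 25.2 in DTC, 19.6, 18.9 and 25.8 in DTEC and 37.1, 34.9 and 38.95 in KO. All treated libraries of E2F1 lay below untreated WT. It was not called at 7 days (log2 fold change -0.22 ± 0.119, adjusted p = 0.11), where its sign turned with upper-quartile factors and total counts alone, and was lower at 28 days (log2 fold change -0.51 ± 0.120, adjusted p = 0.00277). E2F8, an atypical E2F repressor, had 58.4, 64.5 and 62.6 CPM in untreated WT, 28.7, 17.8 and 19.03 in DTC, 27.2, 31.3 and 30.8 in DTEC and 64.7, 70.1 and 69.8 in KO. Treated libraries of E2F8 were well below untreated WT, with falls at 7 days (log2 fold change -1.50 ± 0.149, adjusted p = 6.26e-07) and at 28 days (log2 fold change -1.05 ± 0.147, adjusted p = 3.78e-05). E2F2 and E2F7 fell at 7 days by 0.92 and 0.90, and in untreated WT they had the lowest levels of the 57, at 2.60 and 3.07 CPM per kilobase. The 3 chromatin assembly genes were lower at both times, with medians of -1.19 and -0.94. CHAF1B, a subunit of the histone chaperone CAF-1, had 26.7, 28.5 and 27.4 CPM in untreated WT, 12.1, 9.04 and 8.94 in DTC, 12.2, 14.2 and 14.5 in DTEC and 29.1, 30.5 and 26.5 in KO. It fell at 7 days (log2 fold change -1.46 ± 0.128, adjusted p = 1.76e-07) and at 28 days (log2 fold change -1.01 ± 0.126, adjusted p = 1.32e-05). ASF1B, a chaperone that hands histones to CAF-1, had 95.8, 98.04 and 93.3 CPM in untreated WT, 65.4, 53.3 and 67.97 in DTC, 58.1, 65.1 and 72.8 in DTEC and 96.5, 110.1 and 107 in KO. Its 2 treated groups overlapped each other and not untreated WT, with falls at 7 days (log2 fold change -0.62 ± 0.113, adjusted p = 0.000221) and at 28 days (log2 fold change -0.55 ± 0.113, adjusted p = 0.000952).

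Most other genes of the same pathways were lower too. Of 60 such genes, 45 were lower and 3 higher in DTC, and 43 were lower and 5 higher in DTEC, with medians of -0.95 and -0.65. Over all genes 33.3% were lower and 34.0% higher in DTC, and 26.3% were lower and 26.0% higher in DTEC. Among 10 other licensing and initiation genes 9 were lower in DTC, from MCMBP, an MCM-binding protein, at -1.49 ± 0.087 to ORC4 at 0.02 ± 0.128, which was not called. Of 13 other elongation genes 8 were lower and 1 higher. The largest absolute change was that of the flap endonuclease gene FEN1, -1.33 ± 0.125. The smallest was that of the polymerase epsilon subunit POLE4, -0.08 ± 0.160, not called. Of 25 other genes of nucleotide metabolism 19 were lower and 1 higher. DHODH, the mitochondrial enzyme of pyrimidine synthesis, had the largest absolute change, -2.38 ± 0.147. DGUOK had the smallest, -0.08 ± 0.127, not called. Of 9 other E2F, DP and RB family genes 6 were lower and 1 higher. E2F4, a repressor partner of RB-like proteins, had the largest absolute change, -1.67 ± 0.097. RB1 had the smallest, -0.05 ± 0.157, not called. All 3 other chromatin assembly genes were lower, from NASP at -1.05 ± 0.109 to RBBP4 at -0.34 ± 0.085, the latter not with upper-quartile factors (adjusted p = 0.599) or total counts alone (adjusted p = 0.864). The 3 genes higher in DTC, named after their values were seen, were RBL2, POLD4 and RRM2B. RBL2, whose product p130 represses E2F targets in resting cells, had 25.9, 25.7 and 27.2 CPM in untreated WT, 72.4, 60.6 and 57.8 in DTC, 101, 97.1 and 81.8 in DTEC and 30.7, 29.04 and 28.3 in KO. It rose at 7 days by 1.27 ± 0.11 (adjusted p = 1.64e-07) and at 28 days by 1.83 ± 0.11 (adjusted p = 2.5e-08) on the log2 scale. POLD4, a small subunit of polymerase delta, rose by 1.12 ± 0.231 and RRM2B, the p53-responsive ribonucleotide reductase subunit, by 0.48 ± 0.106 at 7 days. The 5 higher in DTEC, also named after their values were seen, were RBL2, TFDP2 (0.70), TK2 (0.70), CHTF8 (0.53) and RBBP4 (0.21).

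Mitosis genes, which peak later in the cycle, were set beside the replication genes. All 20 of a list of them were lower in DTC, with a median of -1.87 against -1.09 for the 57, and all 20 in DTEC, with a median of -0.95 against -0.86. Over all genes 33.3% were lower in DTC and 26.3% in DTEC. In DTEC 19 of the 20 were higher than in DTC, against 28.8% of all genes. CDK1 was lower in DTEC than in DTC, by 0.54 ± 0.128 on the log2 scale (adjusted p = 0.00274). The difference between the lists was not tested.

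In the TDP1 knockout line without drug the replication genes were near their level in untreated WT. None of the 57 was called in KO against untreated WT, beside 4.31% of all genes, and 7 had an unadjusted p under 0.05. Their median log2 fold change was -0.08 beside -0.01 over all genes. Below 0 were 40 of the 57, beside 8854 of the 17115 genes tested. The 95% interval of the change lay within 1.5-fold either way for 53 genes and within 2-fold for all 57. All KO libraries lay below all untreated WT libraries for 19 genes, which was so for 19.9% of all genes, and above them for 6, against 15.8%. The gene nearest to a call was E2F2, an activator E2F, named after its values were seen, with 14.2, 14.5 and 13.9 CPM in untreated WT and 21.1, 20.6 and 20.9 in KO. Its groups did not overlap and its log2 fold change was 0.56 ± 0.156 (adjusted p = 0.061, with 0.000258 to 0.193 over the alternatives). DESeq2 called E2F2 alone (adjusted p = 0.0259). Fitting the KO and untreated WT libraries alone called 6 genes, with E2F2, E2F1 and MCM5 higher and PRIM1, RPA2 and RRM2 lower, at log2 fold changes of 0.58, 0.31, 0.18, -0.26, -0.21 and -0.19.

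**Figure D5:**
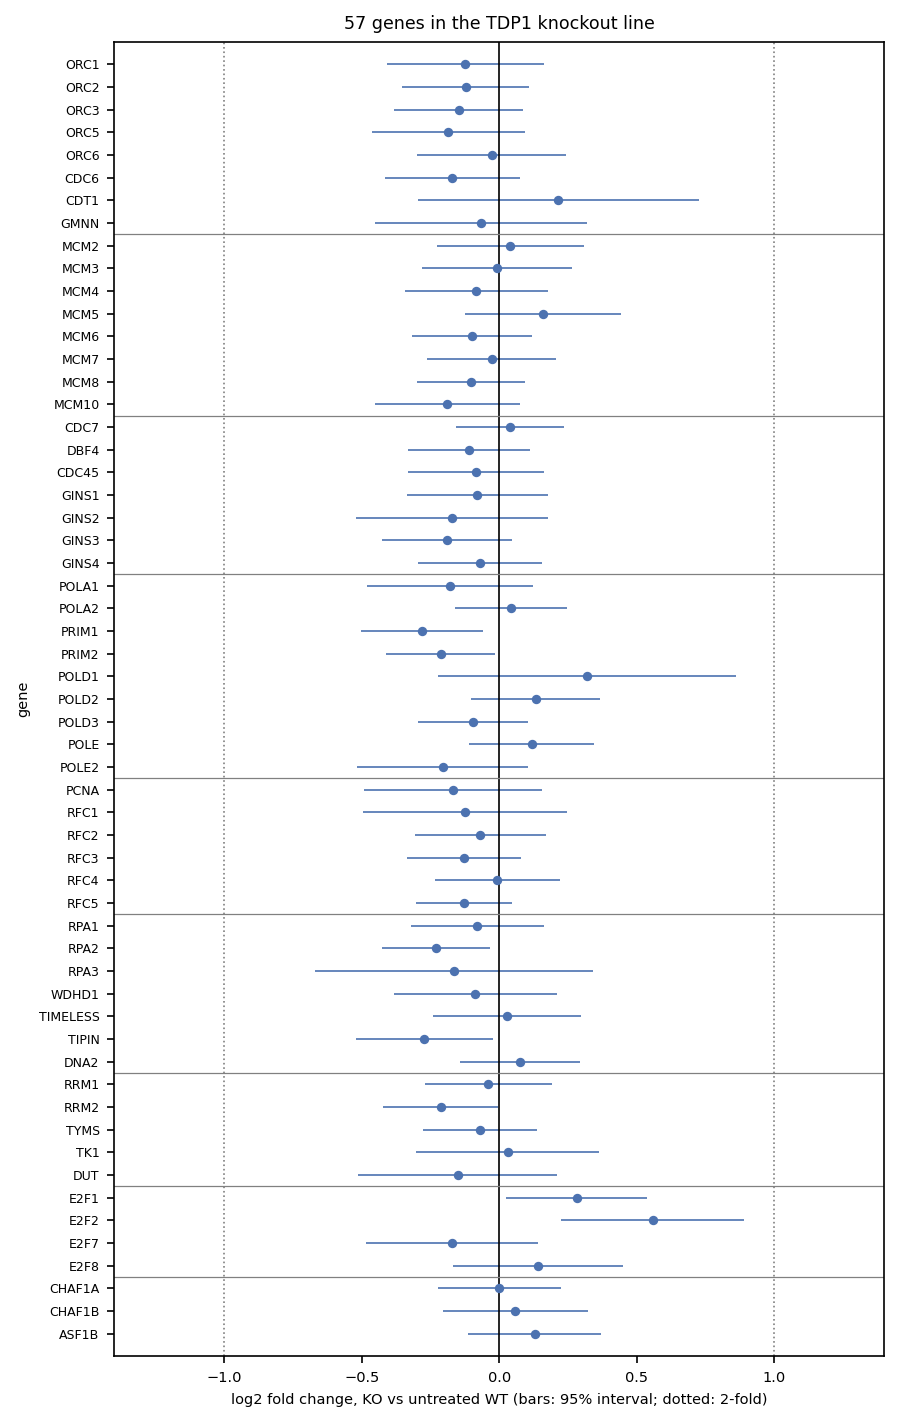
Log2 fold change of the 57 genes in KO against untreated WT (x axis, points with 95% intervals, dotted lines at 2-fold either way), with genes on the y axis grouped by role. All intervals lie inside the dotted lines, and E2F2 lies farthest from 0 at 0.56.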

How the data were processed

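RNA-seq of polyadenylated RNA from 12 PC9 cultures was analysed. The authors deposited a table of estimated counts per Ensembl gene. The submitters' processing notes name RSEM 1.3.1, Bowtie2 2.5.2, DESeq2 1.40.2 and GRCh38; their roles, the annotation release and the strand setting of the counting are not given in the sources used here, while the library kit was a stranded one per the labels' protocols. The expected counts were rounded to whole numbers. All 12 columns were mapped to samples by name, and 0 columns of other samples were present.

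Genes were kept by filterByExpr (minimum count 10, by group), which left 17115 genes holding at least 99.891% of the counts of each library. edgeR 4.0.16 (R 4.3.3, limma 3.58.1) fitted 1 mean per group to all 12 libraries with TMM scaling and a robust quasi-likelihood fit. The test was glmQLFTest with Benjamini-Hochberg adjustment over all genes, and adjusted p-values under 0.05 were called. The common biological coefficient of variation was 14.64%. SE is the log2 fold change divided by the square root of F. The fit was tested on simulated data. A count of 3 equals 0.0824 to 0.115 CPM, so depth limits none of the levels printed for the 57 genes. Replicates differed beyond sampling noise, and none was taken for a duplicate. DTC replicate 1 differed most from its group over all genes tested, beyond the single genes described. The chi-square per gene was 113.79 against DTC replicate 2 and 70.07 against DTC replicate 3. It was 17.01 between DTC replicates 2 and 3, and at most 45.44 within the other groups. Coordinates, exon lengths and overlaps are from GENCODE 29. Of the 57 genes, 7 share exon bases with another gene on the same strand and 18 with a gene on the opposite strand. Estimated counts were whole in all 12 libraries for 39 of the 57, and in at most 5 for 9.

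The genes and lists, including the other pathway genes and the mitosis list, were chosen with earlier results of these data known. Values in every library are printed for 26 genes: in each role list the largest and smallest absolute change at 7 days; MCM2, PCNA, RRM2, TYMS, TK1, CDC6, CDT1 and E2F1; genes called in KO or in opposite directions at the 2 times (none); and the 3 largest rises and 3 lowest values of DTEC against DTC. Promoter stretches are those of the 4 genes with E2F letters that fell most, leaving out chromosome 8, and of the gene nearest 0. Other lists are given by counts with their largest and smallest change. Alternatives were DESeq2 1.42.0, RLE, upper-quartile and no scaling factors, no filter, a filter of 1 CPM in 3 libraries, only the compared libraries, a replicate block, and each compared library left out.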

Additional observations from a re-analysis of the deposited data

Results flagged for a closer look

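For 16 of the 26 genes printed in every library, the effects of 7 and 28 days of erlotinib differed by the direct test of DTEC against DTC (edgeR's quasi-likelihood test, adjusted p under 0.05). MCM5, MCM7, POLA1, ORC6, GMNN and RPA3 met the selection rule for the largest rises or lowest values in this same comparison. The count of 16 was therefore partly set by the selection and cannot be compared with the share of all genes. Over the full list of 57 genes 30 were called, where the share of all genes called was 55.4%. The values below are log2 fold changes of DTEC over DTC. The higher genes were MCM7 (1.065), POLA1 (1.031), MCM5 (0.987), ORC1 (0.808), DBF4 (0.551), MCM2 (0.532), E2F8 (0.446), CHAF1B (0.446) and RFC5 (0.264). The lower genes were ORC6 (-1.041), RPA3 (-0.650), GMNN (-0.607), POLA2 (-0.515), RRM2 (-0.355), TYMS (-0.316) and RPA2 (-0.246).

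The calls of ORC1, ORC6, GMNN, MCM2, MCM5, MCM7, DBF4, POLA1 and POLA2 were present under all 14 alternatives. RPA3 was not called without DTC replicate 2 (-0.34, adjusted p = 0.141), without DTC replicate 3 or without DTEC replicate 1 or 2. E2F8 and CHAF1B were not called without DTC replicate 2 (0.28 and 0.34), without DTC replicate 3 or without DTEC replicate 3, and E2F8 also not without DTEC replicate 2. With total counts alone E2F8, CHAF1B and RFC5 were at 0.26, 0.26 and 0.077, not called, nor were they with upper-quartile factors (0.277, 0.275 and 0.089) or the compared libraries alone (0.421, 0.423 and 0.244). RRM2, TYMS, RPA2 and RPA3 were also not called with the compared libraries alone, and RFC5, RPA2 and TYMS not with no filter. RFC5 was not called without DTC replicate 3 or DTEC replicate 2 or 3 (0.20 without DTEC replicate 3), RPA2 not without DTC replicate 2 or 3 or DTEC replicate 1 (-0.23 without DTC replicate 3), and TYMS not without DTEC replicate 1 (-0.24).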

How the results depend on the processing

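The members called numbered 46 to 53 in DTC and 46 to 52 in DTEC over 14 alternatives each, and 44 of 51 and 45 of 52 calls were present in all 14. For DTEC against DTC, 17 of 30 calls were present in all 14, and 17 genes (14 higher, 3 lower) were called with the compared libraries alone. Correlations of same-numbered deviations ran from -0.013 to 0.179. Those of differently numbered libraries were not computed, so these values cannot tell whether the replicate numbers paired the samples. The replicate block gave 53, 52, 32 and 1 calls in DTC, DTEC, DTEC against DTC and KO. With the block GMNN (-0.404, adjusted p = 0.0474) and ORC3 were called lower at 7 days, E2F1 and WDHD1 were called in DTEC against DTC, and E2F2 was called higher in KO. In KO 1 gene was called with DESeq2, total counts alone, no filter, the 1 CPM filter and the replicate block, and 6 with the compared libraries alone. Leaving out 1 library gave 50 to 52, 48 to 50, 21 to 38 and 0 to 0 calls in the same order.

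Some log2 fold changes changed sign at 7 days, among them that of PRIM2, which was called, and the cause was not tested. With total counts alone ORC6 was 0.277, E2F1 0.130, POLE4 0.273, DGUOK 0.277, RB1 0.310, RBBP4 0.017, ORC3 0.117 and PRIM2 0.087, and RPA3 at 28 days 0.018. With upper-quartile factors ORC6 was 0.213, E2F1 0.063, POLE4 0.211, DGUOK 0.214 and RB1 0.238, and PRIM2 and ORC3 were also above 0. With the 1 CPM filter ORC6 was 0.033, POLE4 0.030, DGUOK 0.033 and RB1 0.061, and with RLE factors RB1 was 0.004. Leaving out 1 library gave -0.160 (without DTC replicate 2) to 0.067 (without DTC replicate 1) for ORC6. The same range was -0.001 (without DTC replicate 1) to 0.121 for POLA2, -0.073 (without DTC replicate 2) to 0.200 for ORC4, -0.199 to 0.164 (without DTC replicate 1) for POLE4 and -0.152 to 0.101 (without DTC replicate 1) for DGUOK. For RB1 it was -0.262 (without DTC replicate 1, adjusted p = 0.0396) to 0.144 (without DTC replicate 2). At the levels of these genes 3 counts are well under 1 CPM.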
